A study of Mus musculus with 15 samples.

Results

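A set of 10 genes tied to T cell anergy and tolerance were followed in OT-I mouse CD8+ T cells: Nrn1, Izumo1r, Nt5e, Rnf128, Cblb, Itch, Ndfip1, Dtx1, Dgka and Dgkz. They were taken by name from the gene count table, where 10 of the 10 were among 55536 annotated genes, and they were chosen by name with their CPM and fold changes between the groups already known from these data. The question was whether cells that met antigen without costimulation carried more of these transcripts than naive cells or than cells given both. All 15 libraries came from OT-I cells, which share a transgenic receptor for the ovalbumin peptide SIINFEKL on a C57BL/6J background. Per the study's methods the OT-I mice lacked Rag1 or Rag2 and all mice were adults of both sexes. Naive cells (5 libraries) were purified from OT-I mice without transfer. Ag cells (5 libraries) were OT-I cells transferred into wild-type C57BL/6J recipients that received the peptide with a control rat IgG, and Ag+Costim cells (5 libraries) came from recipients that received the peptide with agonist antibodies to OX40 (CD134) and 41BB (CD137). Transferred cells were collected on day 4 per the labels and sorted from spleen and lymph nodes for CD8, CD45.1 and the OT-I receptor chains. The study describes the libraries of a group as separate biological replicates, while the labels do not name the animals. Recorded sex was the same for each replicate number in all 3 groups.

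Anergy is a lasting state of low responsiveness that T cells enter when the receptor is engaged without costimulation. Several of its known brakes act inside the cell: E3 ubiquitin ligases tag signalling proteins for removal, and diacylglycerol kinases consume the lipid messenger that activates Ras. Others sit at the surface, where folate receptor 4 and CD73 mark anergic CD4+ T cells, and CD73 makes adenosine, which dampens T cells.

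Total counts were between 4865952 and 25280667 per library, with Ag 3 the shallowest. The 6 CD8 T cell markers summed to between 3705 and 8032 counts scaled to a library total of 1000000 (CPM) in every library (6 of 6 detected in each), while Cd4 stayed at or below 4.52 CPM and Foxp3 at or below 1.24 CPM. Naive libraries were run on lane 3, Ag libraries on lane 2 and Ag+Costim libraries on both, so lane and group cannot be told apart between Ag and Naive. The 5 Ag libraries did not form 1 cluster. The 5 dividing cell markers (Mki67, Top2a, Birc5, Ccna2 and Cdk1) summed to 539 and 507 CPM in Ag 1 and Ag 4 and to between 1996 and 2672 CPM in the other Ag libraries. Naive 5 stood apart among the Naive libraries, at 2221 CPM of dividing cell markers against 104 to 823 CPM. Ag 3 held 663 CPM of 3 erythroid markers, against at most 91.1 CPM elsewhere. Ag 2 and Ag 5 had recorded input amounts of 1.4 and 1.8 (no unit given), against 7 to 10 in the other 13 libraries, and counts in 21705 and 20949 genes, against 31845 to 44408 in Ag 1, 3 and 4. In Ag 3 counts came to 16.9% of sequenced reads, against 37.4% to 53.6% elsewhere.

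The genes are spread over several chromosomes of GRCm38 (GENCODE M21 positions). Nrn1 is at chr13:36725361-36735131 on the minus strand, Rnf128 at chrX:139563316-139673145 on the plus strand, Cblb at chr16:52031225-52208048 on the plus strand, and Itch at chr2:155133509-155226855 on the plus strand. Dgkz shares chromosome 2 with Itch, at chr2:91932824-91975864 on the minus strand. Nt5e and Izumo1r are both on chromosome 9, at chr9:88327197-88372092 on the plus strand and chr9:14885814-14903949 on the minus strand. Dtx1 is at chr5:120680202-120711927 and Dgka at chr10:128720134-128744855, both on the minus strand. Library construction did not keep strand, so reads of Nrn1 and of Fars2, which overlaps it on the other strand, and reads of Dgka and Pmel, likewise opposed, cannot be told apart. The same holds for Dgkz and the protein-coding Gm9821 on its other strand. Izumo1r, Nt5e and Dtx1 overlapped no other annotated gene.

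RefSeq promoter windows (GRCm38.p6) were found for 7 of the 10 genes, and 11 windows in all. The upstream stretches that lie outside every annotated transcript of the gene are shown for Izumo1r, among the most variable of the genes, and for Dgka, the most abundant. Capitals mark the NFAT core GGAAA or its complement, for the factor that is activated by calcium and drives anergy genes when its partner AP-1 is missing; the match reads TTTCC where it lies on the other strand. They are given 5′ to 3′ on the minus strand, at chr9:14903950-14904017 for Izumo1r and chr10:128745085-128745334 for Dgka.
Izumo1r upstream: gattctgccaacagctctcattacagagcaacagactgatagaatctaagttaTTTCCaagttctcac
Dgka upstream: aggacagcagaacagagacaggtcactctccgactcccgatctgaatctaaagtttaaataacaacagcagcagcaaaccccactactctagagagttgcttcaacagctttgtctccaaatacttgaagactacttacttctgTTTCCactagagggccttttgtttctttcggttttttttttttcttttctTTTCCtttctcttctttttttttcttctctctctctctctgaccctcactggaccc
The Izumo1r stretch of 68 bases held 1 match to GGAAA and the Dgka stretch of 250 bases held 2, with both strands searched. Neither held the AP-1 motif TGANTCA nor the EGR motif GCGNGGGCG. The other Dgka windows are not shown and held between 0 and 2 matches to GGAAA. Of 32851 mouse promoter windows, 20.6% held GGAAA in the same 68 bases and 55.6% in the 250 bases before the start. AP-1 letters were in 6.75% and EGR letters in 4.7% of the 250-base windows. These matches describe letters and not bound sites.

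Per kb of exon, Dgka was the most abundant of the genes, with a mean level of 142 CPM per kb over 15 libraries, followed by Ndfip1 at 80.9 CPM per kb. Dgkz (19.6 CPM per kb), Dtx1 (16.5), Izumo1r (15.7), Cblb (10.4), Itch (9.36) and Nrn1 (8.32) followed, and Nt5e (3.8) and Rnf128 (0.277) came last. The order differed by group. In Naive, Dgka (198 ± 56.7 CPM per kb, SD, n = 5) lay above Ndfip1 (63.2 ± 9.24), and in Ag+Costim these 2 did not differ beyond their spread (85.7 ± 9.29 and 87.8 ± 2.42 CPM per kb). Izumo1r was at 3.03 ± 0.384 CPM per kb in Naive and 3.17 ± 1.39 in Ag+Costim, beside Nt5e at 3.08 ± 0.812 and 1.12 ± 0.218. In Ag the mean of Izumo1r was 40.8 CPM per kb with an SD of 48.9, a spread as large as the level itself.

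**Figure D1:**
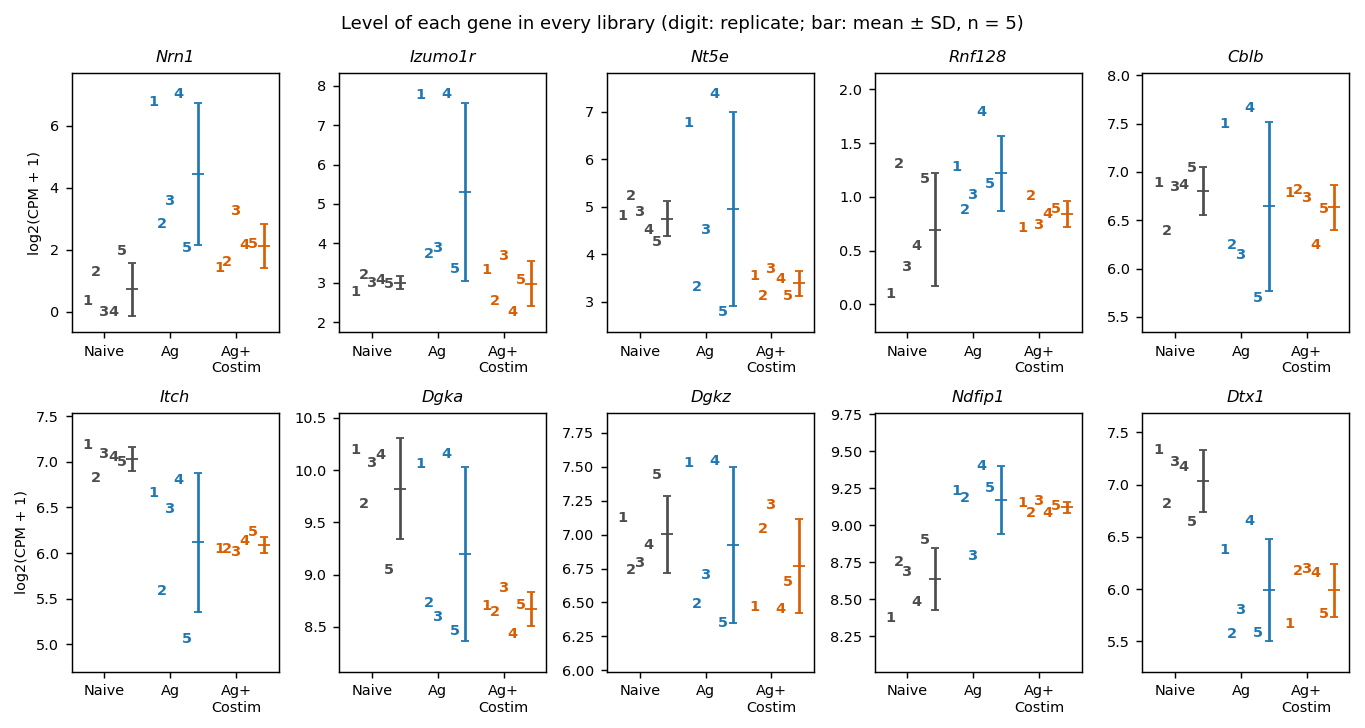
Level of each of the 10 genes in every library, as log2(CPM + 1), with digits for replicates and bars for the group mean ± SD (n = 5); each panel has its own axis. Ag 1 and Ag 4 stand far above all other libraries for Nrn1, Izumo1r and Nt5e (Nrn1 at 107 and 130 CPM against at most 10.9 CPM elsewhere).

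The surface molecules held the widest differences between libraries. Nrn1 encodes neuritin, a membrane-anchored protein first known from neurons. It was at 0.275, 1.4, 0, 0 and 2.9 CPM in Naive 1 to 5, at 107, 6.16, 10.9, 130 and 3.17 CPM in Ag 1 to 5, and at 1.65, 2.02, 8.42, 3.39 and 3.54 CPM in Ag+Costim 1 to 5. Every Ag library lay above every Naive library, but Ag 1 and Ag 4 alone were above 100 CPM, while Ag 2 and Ag 5 lay within the Ag+Costim range and Ag 3 just above it. The zeros of Naive 3 and 4 allow up to 0.119 and 0.229 CPM at 3 counts each, for counting error only.

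Izumo1r encodes folate receptor 4. It was at 5.77, 8.17, 6.92, 7.47 and 6.78 CPM in Naive 1 to 5, at 218, 12.3, 13.8, 220 and 9.16 CPM in Ag 1 to 5, and at 9, 4.81, 11.8, 3.82 and 7.34 CPM in Ag+Costim 1 to 5. The Naive and Ag ranges did not overlap, though the lowest Ag library lay just above the highest Naive library, and the Ag and Ag+Costim ranges overlapped. Within Ag the highest library was 24-fold above the lowest, against 1.42-fold in Naive.

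Nt5e encodes CD73, the enzyme that turns AMP into adenosine outside the cell. It was at 27, 36.5, 28.8, 21.9 and 18.2 CPM in Naive 1 to 5, at 108, 8.95, 21.8, 164 and 5.94 CPM in Ag 1 to 5, and at 10.6, 7.76, 12, 10.1 and 7.67 CPM in Ag+Costim 1 to 5. Ag libraries lay on both sides of the Naive range, with Ag 1 and Ag 4 above it and Ag 2 and Ag 5 below it. All Ag+Costim libraries lay below all Naive libraries.

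Other cell types were checked in the libraries where these 3 transcripts were highest. The summed level of the 6 regulatory and CD4 T cell markers was 219 and 220 CPM in Ag 1 and Ag 4, against 94.6 to 118 CPM in Ag 2, 3 and 5, 99.9 to 125 CPM in Ag+Costim and 41.7 to 90.3 CPM in Naive. Ctla4 was at 120 and 138 CPM in Ag 1 and Ag 4, against at most 65.4 CPM elsewhere, and Zbtb7b, the factor of the CD4 lineage, at 12.1 and 20.8 CPM, against 1.03 to 4.11 CPM. Ikzf2 was at 80.2 and 56.2 CPM, against 6.61 to 28.8 CPM in the other Ag libraries and 12.4 to 56.2 CPM in Naive. Il2ra, at 2.86 and 3.67 CPM, was lower there than in any other library. The defining Cd4 was at 2.29 and 0.918 CPM and Foxp3 at 1.24 and 0.765 CPM, against up to 4.52 and 0.822 CPM elsewhere. So 3 of the 6 markers (Ctla4, Zbtb7b and Ikzf2) were higher in Ag 1 and Ag 4 than in each other Ag library, and Il2ra was lower. The 4 follicular helper T cell markers summed to 56.8 and 79.8 CPM in Ag 1 and Ag 4, against 15.9 to 36.6 CPM in the other Ag libraries, 22 to 52 CPM in Naive and 8.3 to 21.6 CPM in Ag+Costim. Cxcr5 was highest there, at 36.2 and 45.1 CPM against 2.91 to 22.2 CPM elsewhere, and Bcl6 was at 12 and 17.9 CPM against 0 to 14.8 CPM. Cd40lg, at 7.73 and 14.3 CPM, lay within the range of the other libraries (0.833 to 21.7 CPM), and Il21 was at 0.859 and 2.45 CPM against 0 to 1.64 CPM. The part of such cells in these levels was not tested. The 5 B cell markers summed to 151 and 179 CPM in Ag 1 and Ag 4 and to 341 CPM in Ag 3. Elsewhere these markers stayed between 12.8 and 29.9 CPM. In Ag 3 Nrn1 was at 10.9 CPM, Izumo1r at 13.8 CPM and Nt5e at 21.8 CPM. The sort on CD8 should have removed B cells, and their part in these levels was not tested. The 5 myeloid markers ranged from 56.9 to 120 CPM in Ag, 76 to 141 CPM in Ag+Costim and 11.7 to 173 CPM in Naive, and the 3 NK cell markers from 29.8 to 98.4, 51.2 to 91.4 and 29.5 to 99.1 CPM. In bulk libraries, fewer cells that carry a transcript and less RNA per cell cannot be told apart.

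**Figure D2:**
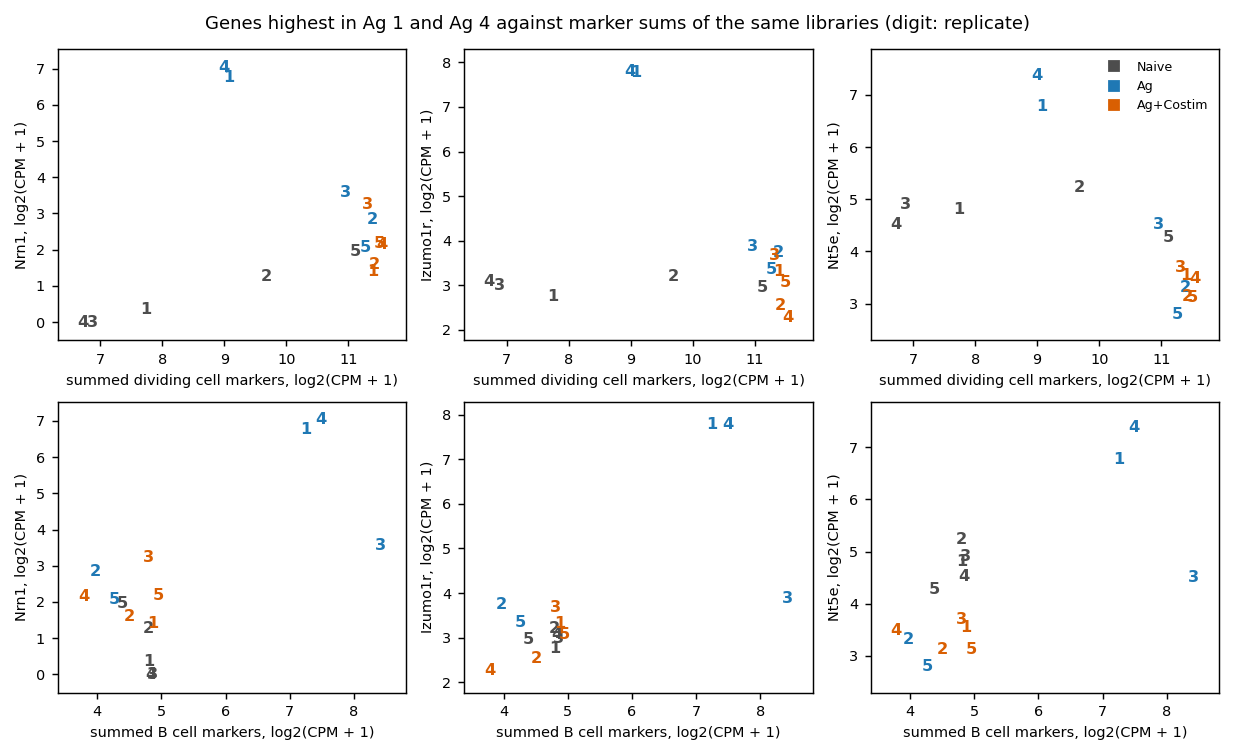
Nrn1, Izumo1r and Nt5e (vertical, log2(CPM + 1)) against the summed dividing cell markers (top) and B cell markers (bottom) of the same 15 libraries, with digits for replicates and colours for groups. Ag 1 and Ag 4 combine the highest levels with 539 and 507 CPM of dividing cell markers. Ag 3, with the most B cell marker RNA (341 CPM), has Nrn1 at 10.9, Izumo1r at 13.8 and Nt5e at 21.8 CPM.

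The E3 ligases and their adaptor varied less. Ndfip1 encodes a membrane adaptor that recruits and activates ligases of the Nedd4 family, Itch among them. It was at 330, 430, 410, 355 and 476 CPM in Naive 1 to 5, at 601, 579, 443, 676 and 607 CPM in Ag 1 to 5, and at 569, 541, 572, 538 and 559 CPM in Ag+Costim 1 to 5. Ag+Costim lay wholly above Naive with an SD of 15.3 CPM, the tightest group for any of the 10 genes relative to its mean (2.76%), and Ag overlapped Naive through Ag 3 alone.

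Itch, a HECT-type ligase that tags proteins of T cell receptor signalling, was at 144, 112, 135, 131 and 127 CPM in Naive 1 to 5, at 100, 46.8, 88.4, 111 and 32.4 CPM in Ag 1 to 5, and at 64.6, 64.6, 63.3, 68.8 and 74.1 CPM in Ag+Costim 1 to 5. Both primed groups lay below all Naive libraries, Ag 4 by the narrowest margin. In Ag+Costim the adaptor Ndfip1 thus lay wholly above Naive and the ligase Itch wholly below it, where 45.6% of all tested genes had ranges apart in either direction.

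Dtx1 encodes Deltex1, a ligase of the Notch pathway. It was at 160, 111, 148, 143 and 99 CPM in Naive 1 to 5, at 82, 46.6, 54.9, 99.5 and 46.7 CPM in Ag 1 to 5, and at 50, 71, 72, 70 and 53.2 CPM in Ag+Costim 1 to 5. Ag+Costim lay below all Naive libraries, and Ag overlapped Naive by 1 pair, Ag 4 at 99.5 CPM and Naive 5 at 99 CPM. With TMM scaling this pair no longer overlapped.

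Cblb, a RING-type ligase that raises the threshold of T cell activation when costimulation is missing, was at 117, 83.1, 113, 115 and 131 CPM in Naive 1 to 5 and between 74.7 and 111 CPM in Ag+Costim. In Ag it was at 179 and 201 CPM in Ag 1 and Ag 4, above every other library, and at 74.3, 69.7 and 50.8 CPM in Ag 2, 3 and 5, below every Naive library. The group means, 112 ± 17.5 CPM in Naive, 115 ± 69.5 CPM in Ag and 99.3 ± 14.8 CPM in Ag+Costim (SD, n = 5), hid this split.

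Rnf128, which encodes the transmembrane ligase GRAIL, was close to the limit of detection. It had between 1 and 32 counts per library and between 0.0686 and 2.45 CPM, and the 3 groups overlapped. Rnf128 was called in no comparison by edgeR. With limma-voom and sample quality weights it was called in all 3, at 2.61 (SE 0.56, FDR 0.0045) between Ag and Naive, -0.94 (SE 0.39, FDR 0.0495) between Ag+Costim and Ag and 1.67 (SE 0.48, FDR 0.00478) between Ag+Costim and Naive on the log2 scale.

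The diacylglycerol kinases limit signalling from the T cell receptor to Ras. Dgka was at 1164, 815, 1076, 1128 and 525 CPM in Naive 1 to 5, at 1065, 422, 385, 1135 and 351 CPM in Ag 1 to 5, and at 416, 398, 466, 343 and 418 CPM in Ag+Costim 1 to 5. Ag 1 and Ag 4 were at the level of Naive 1 to 4, and Ag 2, 3 and 5 were at the level of Ag+Costim. Naive 5, the Naive library with the most dividing cell marker RNA, was the lowest of its group.

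Dgkz ranged from 106 to 172 CPM in Naive, with a median of 120 CPM, and from 86.4 to 148 CPM in Ag+Costim, with a median of 99.5 CPM. In Ag it was at 183 and 185 CPM in Ag 1 and Ag 4, above every other library, and between 80.5 and 103 CPM in the others. Group means were 129 ± 27.3, 128 ± 51.7 and 111 ± 27.7 CPM in Naive, Ag and Ag+Costim.

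Ag 1 and Ag 4 were the highest pair of the 5 Ag libraries for 9 of the 10 genes, Ndfip1 being the exception, where 29.2% of all 17366 tested genes had this order. They were the highest pair of all 15 libraries for 5 genes (Nrn1, Izumo1r, Nt5e, Cblb and Dgkz), where 6.70% of tested genes were. The libraries were singled out after their values were seen, so these counts are a description. Of the other Ag libraries, Ag 2 and Ag 5 are those of low input and Ag 3 is the shallowest, and the part of input and depth in this order was not tested.

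Gene counts were fitted across all tested genes with edgeR's quasi-likelihood test, and p-values were adjusted by the Benjamini-Hochberg method. A gene was called when its false discovery rate (FDR) was under 0.05. All 10 genes passed the filter on low counts. As the genes were chosen with these comparisons in view, their fitted values place them in the fit and are no independent test.

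Between Ag and Naive, 4 of the 10 genes were called, 3 higher and 1 lower, where 6.71% of all tested genes were called, 3.05% higher and 3.66% lower. On the log2 scale Nrn1 was 5.79 higher (SE 1.27, edgeR FDR 0.0188), Izumo1r 3.72 (SE 0.82, FDR 0.0188) and Ndfip1 0.62 (SE 0.13, FDR 0.0176), and Dtx1 stood at -0.93 (SE 0.19, FDR 0.0146). Itch, at -0.73 (SE 0.23), narrowly missed with an FDR of 0.0667, although its ranges did not overlap. Nt5e was at 1.21 (SE 0.65, FDR 0.225) and Rnf128 at 1.03 (SE 0.59, FDR 0.254). Cblb (0.07, SE 0.28), Dgkz (0.04, SE 0.23) and Dgka (-0.44, SE 0.29) were not called. The median log2 fold change was 0.35 over the 10 genes and 0.08 over all tested genes. The ranges of CPM were apart for 3 genes (Nrn1 and Izumo1r higher, Itch lower), as for 3.63% of all tested genes. The count of 4 went to 0 with no filter on low counts, with the 10 libraries of the comparison fitted alone and with lane as a term. Over all tested genes these settings called 208 of 48994, 6 of 16742 and 0 of 17366. The count of 4 became 1 without Naive 1, without Naive 3 or without Naive 4 and 2 without Ag 2. Over all tested genes these runs called 255 of 18006, 267 of 18085, 273 of 18014 and 513 of 18092. With the replicate number as a block the count was 2 (Ndfip1 and Dtx1), where 9.56% of all tested genes were called. Nrn1 (5.38, SE 1.61, edgeR FDR 0.0589) and Izumo1r (2.97, SE 0.91, FDR 0.0636) were lost. With limma-voom it was 7, where 20.0% of all tested genes were called.

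Between Ag+Costim and Ag, none of the 10 genes was called by edgeR, where 0.0346% of all tested genes were. At an unadjusted edgeR p under 0.05 there were 3, where 26.8% of all tested genes were, and the genes with the lowest fitted values were the surface molecules. Nrn1 was at -3.58 (SE 1.11, FDR 0.085), Izumo1r at -3.51 (SE 0.81, FDR 0.0807) and Nt5e at -2.52 (SE 0.69, FDR 0.0807). DESeq2 called these 3, where it called 14.6% of all tested genes, and limma-voom with sample quality weights called 6, where it called 57.4%. Dgka was at -0.61 (SE 0.29, FDR 0.193), and the other 6 genes lay between -0.73 for Rnf128 and 0.03 for Dtx1. The median over the 10 genes was -0.36, against -0.1 over all tested genes. No gene of the 10 had ranges that did not overlap, where 7.04% of all tested genes did. The count was 3 without Ag 2, 3 without Ag 5 and 1 without Ag 3. Over all tested genes these runs called 2679 of 18092, 3573 of 18108 and 115 of 17531. With the Ag+Costim libraries of lane 2 alone, 0 of the 10 genes were called, where 0 of all 16920 tested genes were.

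Between Ag+Costim and Naive, 4 of the 10 genes were called, 1 higher and 3 lower, where 44.7% of all tested genes were called, 21.0% higher and 23.6% lower. Ndfip1 was at 0.62 (SE 0.13, edgeR FDR 0.00605), Dtx1 at -0.91 (SE 0.19, FDR 0.0052), Dgka at -1.04 (SE 0.29, FDR 0.0152) and Itch at -0.80 (SE 0.23, FDR 0.0163). Nrn1 (2.21, SE 1.17, FDR 0.127) and Nt5e (-1.30, SE 0.66, FDR 0.115) were not called, and Izumo1r was at 0.22 (SE 0.75, FDR 0.824). Ranges did not overlap for 5 genes (Ndfip1 higher and Nt5e, Itch, Dgka and Dtx1 lower), as for 45.6% of all tested genes. The median over the 10 genes was -0.05, against -0.08 over all tested genes. The count was 1 with no filter, 0 with lane as a term and 5 within lane 3 alone. Over all tested genes these settings called 4158 of 48994, 943 of 17366 and 6343 of 18287. Without Ag+Costim 4 the Dgka call was lost (FDR 0.0618), and without Naive 5 Nrn1 was called (3.55, SE 1.35, FDR 0.0412). Nt5e was called with the 10 libraries of the comparison fitted alone (-1.36, SE 0.20, edgeR FDR 0.000592), where 10205 of 15751 tested genes were. Within lane 3 alone Nt5e was called as well (-1.40, SE 0.29, edgeR FDR 0.0259). With limma-voom Nt5e was called at -1.29 (SE 0.34, FDR 0.00297), where 78.5% of all tested genes were.

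Ndfip1 and Dtx1 were called against Naive in both primed groups, and these comparisons share the Naive libraries. Ndfip1 differed from Naive by 0.62 in Ag and in Ag+Costim, and Dtx1 by -0.93 and -0.91. Between the primed groups both were near 0, at -0.01 (SE 0.13) and 0.03 (SE 0.19).

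**Figure D3:**
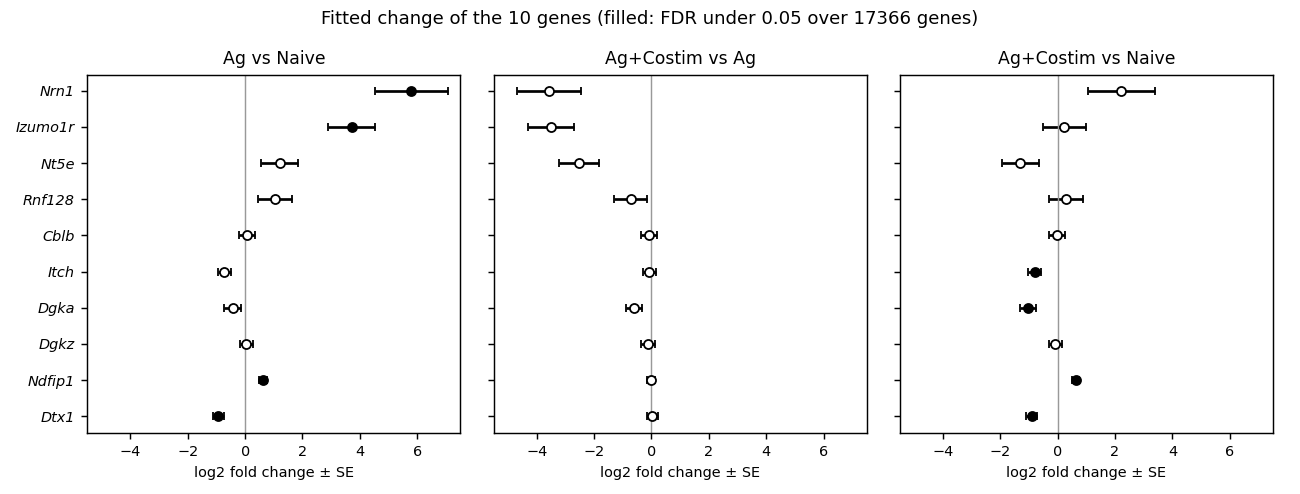
Log2 fold change of the 10 genes in the 3 comparisons from the edgeR fit of all 15 libraries, with bars for the SE; filled points passed an FDR of 0.05 over 17366 genes. Nrn1 and Izumo1r show the widest bars (SE 1.27 and 0.82 between Ag and Naive), Ndfip1 the narrowest (0.13).

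Genes of the same pathways were read beside them. The 6 lists, chosen by known function with earlier results of these data known, held 63 genes. Of these, 53 were tested, and their shares below are a description. Between Ag and Naive 3 were called higher and 8 lower, with a median log2 fold change of -0.33. These 11 were 20.8% of the 53, beside 6.71% of all tested genes. Between Ag+Costim and Ag none was called by edgeR, 20 (37.7%) had an unadjusted p under 0.05, beside 26.8% of all tested genes, and DESeq2 called 8, beside its 14.6%. Between Ag+Costim and Naive 7 were called higher and 21 lower, with a median of -0.49. These 28 were 52.8% of the 53, beside 44.7% of all tested genes, and limma-voom called 44, where it called 78.5% of all tested genes. The counts of each list are to be read against the same shares of all tested genes, 6.71% and 44.7% for the comparisons of Ag and of Ag+Costim with Naive. The Ag and Naive count of 11 went to 0 with lane as a term or the 10 libraries alone, to 3 with no filter, to 4 without Naive 1 or Naive 3, to 5 without Naive 4 and to 7 without Ag 2, and was 17 without Naive 5 or Ag 4. Calls over all tested genes in these runs ranged from 0 with lane as a term to 3871 of 17981 without Naive 5. The Ag+Costim and Ag count was 11 without Ag 2 and 14 without Ag 5, where 2679 of 18092 and 3573 of 18108 genes were called. The Ag+Costim and Naive count of 28 went to 16 with no filter and 10 with lane as a term. In these 2 settings 4158 of 48994 and 943 of 17366 genes were called.

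In the diacylglycerol list, 9 of 11 genes were tested, and 2 fell between Ag and Naive and 5 between Ag+Costim and Naive. Rasgrp1, the exchange factor that diacylglycerol recruits to activate Ras, was at 445, 314, 499, 426 and 232 CPM in Naive 1 to 5, at 196, 77.8, 110, 176 and 67.9 CPM in Ag 1 to 5, and at 110, 97.7, 80.3, 79.8 and 105 CPM in Ag+Costim 1 to 5. Its ranges did not overlap Naive in either primed group, with log2 fold changes of -1.55 (SE 0.25, edgeR FDR 0.00749) and -1.86 (SE 0.25, FDR 0.00115). Dgkd, another kinase of the family, fell by 1.16 (SE 0.24, edgeR FDR 0.0166) in Ag and by 1.14 (SE 0.24, FDR 0.00581) in Ag+Costim on the log2 scale. Dgkh was at 7.25 ± 2.28 CPM in Naive, 11.7 ± 7.32 CPM in Ag and 9.3 ± 1.53 CPM in Ag+Costim (SD, n = 5), and was not called.

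In the list of E3 ligases and partners, 15 of 15 genes were tested. Between Ag and Naive 0 rose and 3 fell, and between Ag+Costim and Naive 2 rose and 7 fell. Peli1, a ligase that restrains T cell activation through NF-kB, was lower by log2 fold changes of -1.27 (SE 0.34, edgeR FDR 0.0422) in Ag and -2.15 (SE 0.35, FDR 0.00228) in Ag+Costim against Naive, and the first call was lost in 16 of 24 alternatives (log2 fold change -1.71 to -0.98). Cbl, the closest relative of Cblb, was at 81.1 ± 17.7 CPM in Naive, 54.8 ± 22.6 CPM in Ag and 51.9 ± 0.975 CPM in Ag+Costim, with an FDR of 0.0514 between Ag+Costim and Naive. Nedd4, which shares its catalytic type with Itch, was at 74.8 ± 5.3, 48.5 ± 25.1 and 77.8 ± 11.4 CPM in Naive, Ag and Ag+Costim and was not called. In Ag 1 and Ag 4 Nedd4 was at 26.1 and 17.3 CPM, below every other library, and in Ag 2, 3 and 5 at 61, 73.8 and 64.2 CPM. Ndfip2, the paralog of Ndfip1, was at 70.7 ± 8.38, 69.6 ± 8.42 and 69.6 ± 4.66 CPM and was not called.

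In the adenosine list, 7 of 10 genes were tested, and none fell in any comparison. Slc29a1, a nucleoside transporter, rose by log2 fold changes of 1.09 (SE 0.22, edgeR FDR 0.0152) in Ag and 1.25 (SE 0.22, FDR 0.00315) in Ag+Costim against Naive. Adk, the kinase that removes adenosine inside the cell, rose by 0.84 (SE 0.16, edgeR FDR 0.013) in Ag and 0.85 (SE 0.16, FDR 0.00376) in Ag+Costim. Adora2a, the adenosine receptor of T cells, was at 24.4, 14.3, 16.1, 16.9 and 21.4 CPM in Naive 1 to 5, at 28.9, 20.8, 12.5, 41 and 14.4 CPM in Ag 1 to 5, and at 45, 40.6, 51.4, 34.6 and 45.4 CPM in Ag+Costim 1 to 5. Ag+Costim lay above all Naive libraries (log2 fold change 1.37, SE 0.25, edgeR FDR 0.00334), and Ag overlapped both groups. Entpd1, or CD39, which supplies AMP to CD73, was at 2.64 ± 1.51 CPM in Naive, 5.89 ± 2.88 CPM in Ag and 3.87 ± 1.08 CPM in Ag+Costim and was not called, and neither was Ada, which breaks adenosine down (10.2 ± 1.26, 10.1 ± 5.07 and 12.9 ± 1.43 CPM). Nt5e was lower and Adora2a higher in every Ag+Costim library than in every Naive library, where 45.6% of all tested genes had ranges apart in either direction.

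In the Notch and Deltex list, 10 of 12 genes were tested, with 0 called between Ag and Naive and 5 lower between Ag+Costim and Naive. Dtx4, a Deltex relative, was at 4.13 ± 1.54 CPM in Naive, 2.11 ± 2.22 CPM in Ag and 0.409 ± 0.467 CPM in Ag+Costim, and between Ag+Costim and Naive it was called at -3.14 on the log2 scale (SE 0.97, edgeR FDR 0.022). Dtx3l, at 124 ± 28.2, 86.3 ± 31.7 and 72.2 ± 9.03 CPM, fell in the same comparison by 0.62 (SE 0.19, edgeR FDR 0.022) on the log2 scale. Dtx1, Dtx3l and Dtx4 were thus each called lower in Ag+Costim than in Naive. Dtx2 (-0.34, SE 0.17, edgeR FDR 0.105) and Dtx3 (-0.68, SE 0.46, FDR 0.222) were not called.

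In the list of anergy transcription factors and related genes, 11 of 11 genes were tested. Between Ag and Naive 1 rose and 3 fell, and between Ag+Costim and Naive 1 rose and 4 fell. Egr2, a factor induced by calcium signals that drives anergy genes, was at 6.18, 9, 15.1, 14.8 and 4.61 CPM in Naive 1 to 5, at 29.8, 3.63, 3.49, 40.6 and 0 CPM in Ag 1 to 5, and at 1.96, 2.1, 2.67, 1.58 and 1.18 CPM in Ag+Costim 1 to 5. As with Nrn1, Ag 1 and Ag 4 were the highest of 15 libraries, and Egr2 passed the threshold in no comparison (FDR 0.0626 between Ag+Costim and Naive). Egr3, its close relative, was at 8.49 and 10.8 CPM in Ag 1 and Ag 4 and at 0.584, 2.06 and 0.444 CPM in Ag 2, 3 and 5. Egr3 was at 5.34 ± 3.04 CPM in Naive and 0.552 ± 0.132 CPM in Ag+Costim, and this difference was called at -3.08 on the log2 scale (SE 0.76, edgeR FDR 0.0102). Nr4a2, a nuclear receptor induced by T cell receptor signals, rose by log2 fold changes of 2.43 (SE 0.55, edgeR FDR 0.021) in Ag and 1.80 (SE 0.54, FDR 0.0196) in Ag+Costim against Naive. Of the folate receptor and neuritin relatives, 1 of 4 genes was tested, the folate transporter Slc19a1, which rose in Ag+Costim against Naive by 0.54 (SE 0.18, edgeR FDR 0.0306).

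**Figure D4:**
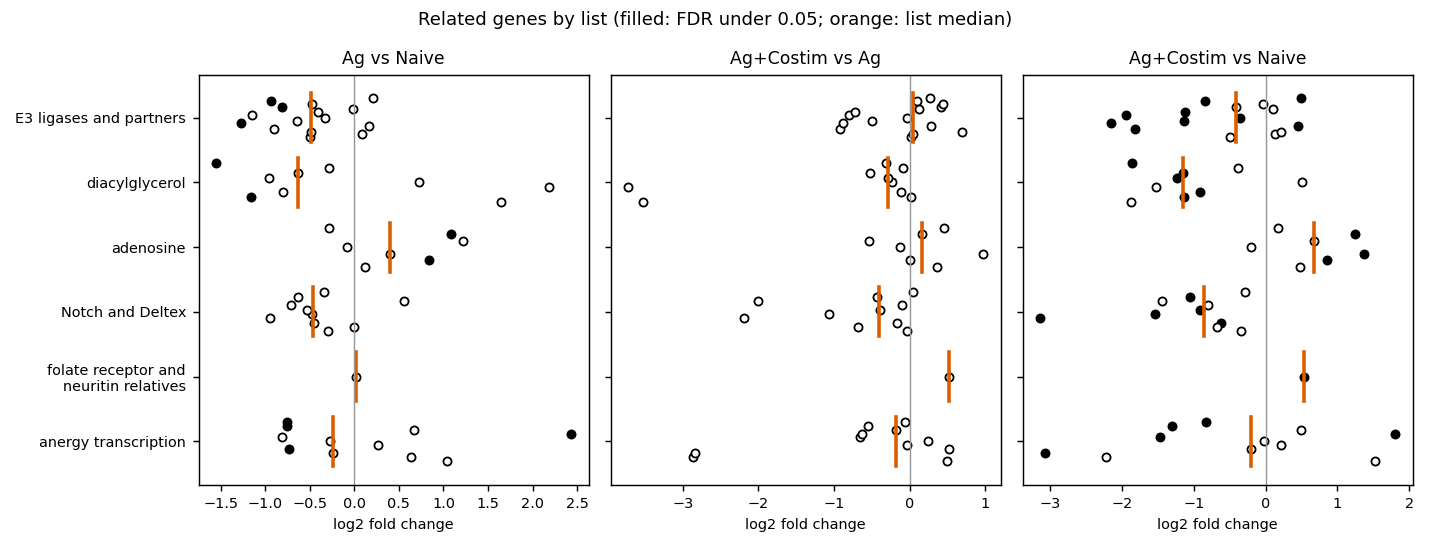
Log2 fold change of the 53 tested pathway genes by list in the 3 comparisons; filled points passed an FDR of 0.05, and orange bars mark list medians. Filled points are absent between Ag+Costim and Ag, and between Ag+Costim and Naive 21 of 28 lie below 0.

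Which other genes followed the most variable of the 10 across the 15 libraries was read from the mean absolute difference of centred log2(CPM + 1), over 11324 genes with a mean of at least 5 CPM. The genes closest to Nrn1 were Nrgn (0.49), Cd200 (0.54) and Trbv12-2 (0.55), where the median gene differed by 1.56. Cd200, a surface ligand of an inhibitory receptor, was at 196 and 267 CPM in Ag 1 and Ag 4 and between 4.87 and 34.9 CPM elsewhere, and Trbv12-2, a T cell receptor beta chain segment, at 103 and 37.4 CPM against 0.412 to 8.01 CPM. OT-I cells share a transgenic receptor, and the source of the Trbv12-2 counts was not tested. Of the 10 genes, Izumo1r stood closest to Nrn1, at 0.75 and place 5 of 11324. Nt5e was at 1.42 and place 856, beside 1.56 for the median gene. Ndfip1, Dgkz, Cblb and Dgka lay between place 578 and place 8397, and Itch and Dtx1 were at places 9796 and 10233. The genes closest to Izumo1r were Angptl2 (0.55), Cd200 (0.65) and Ptger2 (0.66), with a median of 1.17 over genes. The genes closest to Nt5e were Tbc1d4 (0.28), Mxd4 (0.39) and Ift80 (0.39), with a median of 1.00. Tbc1d4 was at 88 and 141 CPM in Ag 1 and Ag 4 and between 5.51 and 25.1 CPM elsewhere. These libraries share batch and depth differences, and the likeness is a description.

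Transcript usage, the share of a gene's counts assigned to each of its transcripts, was not used to choose the genes and was tested with edgeR on 25932 transcripts of 7501 genes. Of the 10 genes 9 could be tested, all but Rnf128. Ndfip1 was called between Ag and Naive (FDR 0.038) and between Ag+Costim and Naive (FDR 0.0494), where 1.31% and 2.20% of all tested genes were. No gene of the 10 was called between Ag+Costim and Ag (edgeR, 0 also at an unadjusted p under 0.05), where 1.75% of tested genes were.

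Ndfip1 was mostly assigned to the coding transcript Ndfip1-204, which held 83.7% of its counts over all libraries, and to Ndfip1-201, with 12%. The transcript that passed was Ndfip1-203, with transcript FDRs of 0.0201 and 0.0293. It had 2415 counts in Naive 2, 46.4% of that library's Ndfip1 counts, and between 0 and 67 counts in the other 14 libraries. Ndfip1-204 in turn had 2179 counts in Naive 2 and between 4190 and 9210 counts in the other Naive libraries. Without Naive 2, Ndfip1 was called in neither comparison, so both calls rest on that library. The Ag and Naive call was also lost without Ag 1, 2, 4 or 5, and the Ag+Costim and Naive call without Ag 1 or without any 1 of the 5 Ag+Costim libraries. Without Ag 3, Dgkz was called between Ag and Naive (usage FDR 0.012) and between Ag+Costim and Ag (0.0381), and without Ag+Costim 5, Itch was called between Ag+Costim and each other group (0.0293 and 0.0211). The authors assigned transcripts from short single-end reads.

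**Figure D5:**
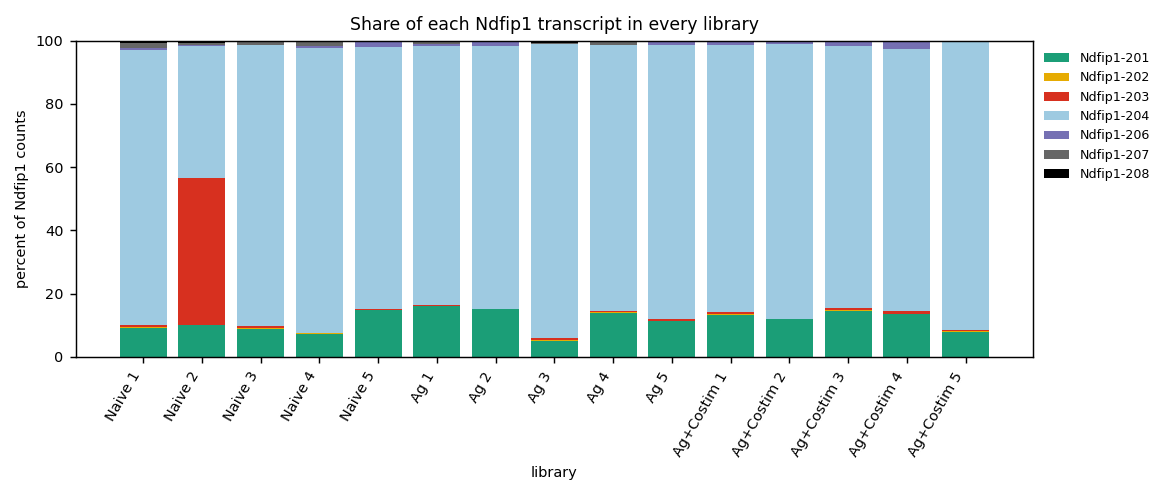
Share of Ndfip1 counts assigned to each transcript in the 15 libraries, as stacked bars that sum to 100%. Ndfip1-203 holds 46.4% of the bar in Naive 2 and a thin band at most in the others, where Ndfip1-204 leads.

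None of the other 8 tested genes passed in any comparison (edgeR). The main Dgka transcript, Dgka-201, held 89.7 ± 4.97% (Naive), 91.8 ± 5.57% (Ag) and 93.4 ± 4.69% (Ag+Costim) of the gene's counts (SD, n = 5). Nt5e-201 held 92.7 ± 2.01%, 94.4 ± 3.34% and 97.6 ± 2.47% of Nt5e counts. Izumo1r-201 held 92.7 ± 4.55%, 81.7 ± 8.16% and 89 ± 11.1% of Izumo1r counts. Itch was split between Itch-201 and Itch-202, with 37.5 ± 18.1% and 37.8 ± 15.7% of counts in Naive and 79.2 ± 26.7% and 13 ± 26.1% in Ag+Costim (gene FDR 0.739). Nrn1-201 held 1123 and 1613 counts in Ag 1 and Ag 4, while in Ag+Costim 1 and 2 all 26 counts of each library went to Nrn1-204 and none to Nrn1-201.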

How the data were processed

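RNA sequencing libraries (SMART-Seq v4 with Nextera XT) of OT-I CD8+ T cells were analysed, 5 each of Naive, Ag and Ag+Costim. Per the submitters' processing notes the authors aligned reads to mm10 with HISAT2 2.1.0 and ran StringTie 2.1.0; the deposited gene and transcript tables hold unnormalised estimated counts, written as whole numbers. Per the file headers, a lane table gives the count of sequenced reads, the percent of reads aligned, the lane and the input. The deposited FPKM table was not used, since its columns for Ag 1 and Naive 5 were identical. Of 81881 gene entries, 55536 matched GENCODE M21 by identifier; 26248 numbered entries (0.0818% of counts) and 97 entries with 0 counts were left out. CPM is counts scaled to 1000000 annotated counts per library. Within groups no libraries agreed within sampling noise (lowest chi-square per degree of freedom 5.62), and intervals and floors cover counting error only.

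Counts were fitted in edgeR 4.0.16 (R 4.3.3) with filterByExpr, TMM scaling and robust quasi-likelihood, 1 coefficient per group over 15 libraries, and two-sided tests; the common biological coefficient of variation was 0.431. Transcript usage was tested with diffSpliceDGE. The scripts were tested on simulated data. The genes and pathway lists were chosen with earlier results of these data known. Named were all 10 genes, the 3 highest and 3 lowest called pathway genes per comparison, 13 relatives whatever their values, and the 3 genes most alike to each of the 3 most variable. Alternatives were library totals alone, DESeq2 1.42.0 and its size factors, limma 3.58.1 (voom with quality weights, diffSplice), no filter, the 10 libraries of a comparison, each library left out, a replicate block, and lane.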

Additional observations from a re-analysis of the deposited data

Results flagged for a closer look

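Nrn1 in Ag+Costim 3 was at 8.42 CPM, with the other Ag+Costim libraries between 1.65 and 3.54 CPM. Its gap to the next library was 0.721 of the group's range, above the limit of 0.71 for 5 samples. Of 30 groups of 5 libraries tested (10 genes in 3 groups), 1 passed, and chance gives about 1 in 20.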

How the results depend on the processing

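Among the 10 genes, each log2 fold change called in a comparison kept its sign under every alternative run, and sign changes of Cblb, Dgkz, Itch, Ndfip1, Dtx1 and Izumo1r were limited to comparisons where they were not called. Counts of calls moved more, and so did calls over all tested genes. Between Ag and Naive the 1165 calls over all tested genes became 208 with no filter and 0 with lane as a term. Between Ag+Costim and Ag the 6 became 2533 with DESeq2 and 9969 with limma-voom. Between Ag+Costim and Naive the 7755 became 4158 with no filter and 943 with lane as a term. Of the 10 genes, the 4 called between Ag and Naive became 7 with limma-voom, 0 with no filter, 0 with the 10 libraries alone, 0 with lane as a term and 1 to 5 with a library left out. The 0 between Ag+Costim and Ag became 3 with DESeq2, 6 with limma-voom, 2 without Ag 3 and Naive 5 (an alternative chosen after seeing the data) and 0 to 3 with a library left out. The 4 between Ag+Costim and Naive became 1 with no filter, 0 with lane as a term and 3 to 5 with a library left out. Since Ag and Naive share no lane, the lane term rests on the Ag+Costim libraries. For pathway genes, the 11 between Ag and Naive became 22 with limma-voom, 3 with no filter, 0 with the 10 libraries alone, 0 with lane as a term and 4 to 17 with a library left out. The 0 between Ag+Costim and Ag became 8 with DESeq2, 33 with limma-voom, 1 without Ag 3 and Naive 5 and 0 to 14 with a library left out. The 28 between Ag+Costim and Naive became 44 with limma-voom, 16 with no filter, 10 with lane as a term and 19 to 33 with a library left out. For transcript usage, the 1 call between Ag and Naive became 0 with limma diffSplice, 0 with the 10 libraries alone and 0 to 2 with a library left out. With diffSplice the 1 gene called between Ag+Costim and Naive was Itch, not Ndfip1. The other comparisons gave 0 to 1 with a library left out. The cause of these moves was not tested.

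Same-numbered libraries did not all deviate together, although recorded sex matched by number: over 15 pairs the correlation of deviations ran from -0.32 to 0.47, above 0.1 in 5, 3 of them between Naive and Ag at 0.41 to 0.47, and 4 were best matched by number. With a replicate block, 2 of the 10 genes (Ndfip1 and Dtx1, not Nrn1 or Izumo1r) were called between Ag and Naive, and transcript usage was called in 0 comparisons. The pathway counts under the block were 12, 0 and 29, and the other counts over the 10 genes did not move.

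Of the pathway relatives, some that were not called changed sign. Between Ag and Naive, Ada went to -0.01 with library totals alone, -0.67 with limma-voom and -0.21 to 0.32 with a library left out. Egr2 went to -0.08 with the block, -0.04 with lane as a term and -0.12 to 0.96 with a library left out. Egr3 went to 0.14 with limma-voom and -0.87 to 0.07 with a library left out, and Ndfip2 to -0.01 with library totals alone, -0.05 with limma-voom and -0.04 with lane as a term. Between Ag+Costim and Ag, Cbl went to -0.09 with library totals alone, -0.28 with limma-voom, -0.01 without Ag 3 and Naive 5 and -0.10 to 0.16 with a library left out. Dgkd went to -0.08, -0.16 and -0.12 to 0.18 under library totals, limma-voom and a library left out. Dgkh went to 0.16 with no filter, 0.14 without Ag 3 and Naive 5 and -0.45 to 0.13 with a library left out, Dtx3l to 0.09 with no filter, and Ndfip2 to -0.01 with library totals alone and -0.04 to 0.23 with a library left out. Between Ag+Costim and Naive, Ndfip2 went to -0.03 with library totals alone. Depth limits Rnf128 and Nrn1 most, with at most 32 and, in Naive, 44 counts per library.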
